A study of Homo sapiens with 9 samples.

Results

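The transcripts of 10 keratin genes, *KRT5*, *KRT6A*, *KRT7*, *KRT8*, *KRT15*, *KRT17*, *KRT18*, *KRT19*, *KRT80* and *KRT81*, were measured by RNA-seq in DU145 cells with and without *FZD6* knockdown. They were chosen by name, with earlier results of these data known, as keratins of luminal and basal epithelial cells and their relatives. They are 10 of 27902 genes in the expression tables. The levels are FPKM, fragment numbers scaled to transcript length and to sequencing depth, summed over the RefSeq entries of each gene symbol. The DU145 line derives from a human prostate cancer. *FZD6* encodes a Frizzled receptor for Wnt ligands. The 9 libraries came from cells expressing scrambled shRNA, *FZD6* shRNA1 or *FZD6* shRNA2, with 3 libraries in each group. All cells belong to the one line, the labels give neither time nor clone, and nothing states whether the libraries of a group came from separate cultures, so that p-values measure only the spread between these libraries.

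Keratins are the intermediate filament proteins of epithelial cells. A filament is built from obligate pairs of a type I (acidic) and a type II (basic or neutral) keratin, so that cells usually express members of both types together. In the prostate, luminal secretory cells are marked by the pair *KRT8* and *KRT18* and also express *KRT19*, whereas basal cells are marked by *KRT5* with type I partners such as *KRT14* and *KRT15*. *KRT6A* and *KRT17* are associated with basal, stressed or regenerating epithelium. *KRT7* belongs to simple ductal epithelia. *KRT80* is a type II keratin of differentiating epithelia, and *KRT81* is a type II hair keratin.

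The type I keratins have similar coding sequence at the start of the helical rod, and this stretch is shown because it bears on how far a read can be assigned to 1 keratin. Each sequence below is 60 bases of coding strand, 5′ to 3′, from GENCODE v29 transcripts on GRCh38. The window was picked for the highest summed identity with the type I members, among 60-base stretches of *KRT18* that lie within 1 exon. It therefore overstates how alike these genes are elsewhere. The window lies in exon 1 and holds the start of the rod, and capitals mark bases that differ from *KRT18*.
KRT18: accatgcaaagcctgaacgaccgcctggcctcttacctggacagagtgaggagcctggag
KRT19: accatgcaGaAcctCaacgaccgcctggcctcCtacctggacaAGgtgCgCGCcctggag
KRT15: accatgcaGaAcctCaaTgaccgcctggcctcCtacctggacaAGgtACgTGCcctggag
KRT17: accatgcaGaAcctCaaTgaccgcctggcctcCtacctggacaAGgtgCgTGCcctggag
*KRT19* shared 50 of the 60 bases with *KRT18*, *KRT17* shared 49 and *KRT15* shared 48. The windows lie at chr12:52949420-52949479 (plus strand) for *KRT18*, chr17:41527942-41528001 (minus strand) for *KRT19*, chr17:41518447-41518506 (minus strand) for *KRT15* and chr17:41624192-41624251 (minus strand) for *KRT17*. Over whole coding sequences, *KRT8* and *KRT7* were 68.2% identical, whereas *KRT18* and *KRT19* were 57.2% identical. A pair of members have much closer copies outside the list: *KRT6A* was 97.5% identical to *KRT6B* and 97.9% identical to *KRT6C*, and *KRT81* was 90.1% identical to *KRT86* and 89.3% to *KRT83*. The values of *KRT6A* and *KRT81* are therefore uncertain to the extent that reads were split among these copies.

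The targeted gene was examined first. *FZD6* was at 20.92, 20.54 and 20.04 FPKM in the 3 libraries with scrambled shRNA, at 9.47, 10.2 and 9.80 FPKM with shRNA1, and at 7.84, 8.79 and 7.69 FPKM with shRNA2. All 6 knockdown libraries were below all 3 control libraries, with a log2 fold change of −1.12 (exact two-sided permutation test, 6 against 3 libraries, p = 0.0238, the smallest this design can give). The epithelial markers *EPCAM* and *CDH1* were present at means of 17.7 and 4.68 FPKM in control cells. None of 4 neuroendocrine, 5 fibroblast, 4 leukocyte and 3 endothelial markers reached a mean of 1 FPKM over the 9 libraries. The leukocyte marker *CD14* came closest, at a mean of 1.11 FPKM in control cells, 0.735 FPKM with shRNA1 and 0.966 FPKM with shRNA2. Depth estimated from the confidence bounds of the FPKM values was 32800000 to 41000000 fragments per library, and correlations between libraries of a group were 0.950 to 0.960 across genes.

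DU145 cells expressed luminal and simple-epithelial keratins at high levels and basal keratins near 0. The members ranked by mean FPKM over the 9 libraries as *KRT7*, *KRT18*, *KRT8*, *KRT19*, *KRT80*, *KRT81*, *KRT15*, *KRT6A*, *KRT17* and *KRT5*. Each of the first 8 exceeded the next in every library, without overlap of their ranges. *KRT17* and *KRT5* overlapped, with *KRT17* higher in 6 of 9 libraries, and their order is not resolved. *KRT7*, at a mean of 1032 FPKM, was 3.69 times *KRT18*, and it ranked between 61st and 75th among all genes of each library. *KRT18* exceeded *KRT8* by a factor of only 1.25, whereas *KRT80* exceeded *KRT81* by a factor of 22.4. *KRT8*, *KRT18* and *KRT19*, which luminal cells express, summed to 639–703 FPKM per library. The 5 basal keratins *KRT5*, *KRT6A*, *KRT14*, *KRT15* and *KRT17* summed to 0.335–0.607 FPKM. This sum leaves out *KRT6B* and *KRT6C*, the close copies of *KRT6A*, which were at means of 0.717 and 0.715 FPKM.

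**Figure D1:**
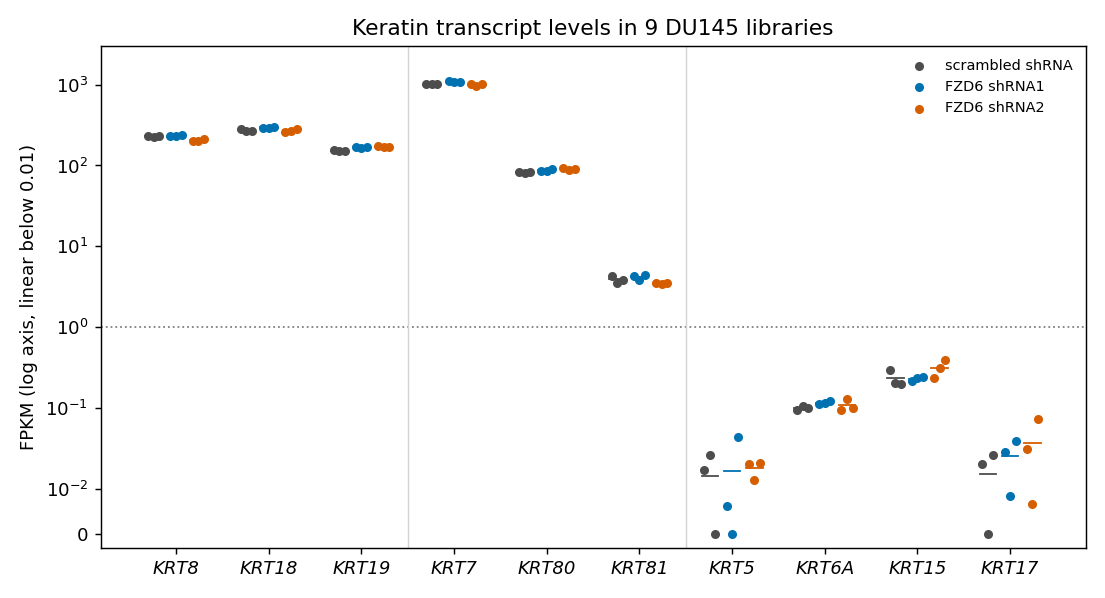
Levels of the 10 keratins in FPKM (vertical axis, logarithmic above 0.01) in each of 9 libraries, colored by shRNA, with a short line at each group mean and a dotted line at 1 FPKM, the minimum mean for a test. *KRT7* lies near 1032 FPKM and the 4 keratins at the right all lie below 0.4 FPKM.

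The 54 keratin genes of the family list, of which 53 had entries in the tables, summed to 1711–1903 FPKM, or 0.217–0.254% of all FPKM of a library. The 10 members held 98.9–99.0% of that sum. *KRT7* alone held a mean of 57.0%, *KRT18* 15.4%, *KRT8* 12.3%, *KRT19* 9.08% and *KRT80* 4.80%. Of the 44 other keratins, *KRT10*, *KRT4* and *KRT86* had a mean of at least 1 FPKM, 40 were below it and 14 were listed at 0 in every library. *KRT10*, a type I keratin of differentiated epidermis, was at a mean of 12.9 FPKM. *KRT4*, a type II keratin of mucosal squamous epithelium, was at 2.58 FPKM, and the hair keratin *KRT86* was at 1.43 FPKM.

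The expressed keratins are spread over both keratin gene clusters. On chromosome 12 (RefSeq, GRCh38.p14), *KRT80* (52168996–52192014) and *KRT7* (52233243–52255853) lie at one end of the type II cluster, with *KRT81* at 52285913–52291534. The barely detected *KRT6A* (52487176–52493257) and *KRT5* (52514575–52520394) follow. *KRT8* (52897191–52949860) and *KRT18* (52948855–52952906) lie at the far end, on opposite strands with overlapping ends. *KRT19* (41523617–41528308), at 164.2 FPKM, lies on chromosome 17 beside *KRT15* (41513745–41518890), at 0.261 FPKM, with *KRT17* at 41619442–41624575.

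Changes with each *FZD6* shRNA were tested by limma on log2(FPKM + 1) across the 12509 genes whose mean reached 1 FPKM, and p-values were adjusted over all of them by the Benjamini-Hochberg method. Of the 10 members, 6 passed this filter. The other 4, *KRT5*, *KRT6A*, *KRT15* and *KRT17*, did not and are given by their levels. With shRNA1, 1 of the 6 tested keratins rose and 0 fell, against 11.7% of all tested genes called higher and 7.19% called lower. With shRNA2, 2 rose and 1 fell, against 15.3% and 11.4% of all genes. In all 6 knockdown libraries against the 3 control libraries, 1 rose and 0 fell, against 13.5% and 7.1%. At an unadjusted limma p under 0.05 the higher and lower counts were 3 and 0 with shRNA1 and 2 and 1 with shRNA2. They were 2 and 0 over all knockdown libraries. The shares of all genes at this looser cut are not given here and are at least as large as those above. The median log2 fold change of the 6 was 0.09 with shRNA1 and −0.03 with shRNA2, beside 0.03 over all genes with either shRNA. The 2 comparisons share their 3 control libraries. The split of called genes moved with the scaling: with shRNA1, 61.9% of called genes were higher as reported, 43.97% with quantile normalization, 43.8% with median-ratio size factors and 50.0% with the length trend removed.

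*KRT19*, the smallest type I keratin, was the member that rose with both shRNAs. It was at 155.7, 151.5 and 152.2 FPKM in control cells, at 170.8, 165.1 and 168.9 FPKM with shRNA1, and at 176.2, 167.9 and 169.3 FPKM with shRNA2. Every knockdown library was above every control library. The mean of 153.2 ± 2.25 FPKM (SD, n = 3) in control cells compared with 168.3 ± 2.91 FPKM with shRNA1 and 171.1 ± 4.45 FPKM with shRNA2. The increase was 9.86% with shRNA1 (log2 fold change 0.13 ± 0.03 SE, limma adjusted p = 0.0193) and 11.7% with shRNA2 (0.16 ± 0.03, limma adjusted p = 0.0075). For all 6 knockdown libraries together it was 0.15 (limma adjusted p = 0.00793). The 2 shRNAs differed by 0.02 (95% interval −0.04 to 0.09).

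The rise of *KRT19* depended on how transcript length and scaling were treated. Across 12295 genes with a known length, which are not independent, log2 fold change decreased with transcript length (Spearman's rho −0.447 for shRNA1 and −0.369 for shRNA2). *KRT19* transcripts are 1390 bases long, against a median of 2659 bases for tested genes. With the length trend of each library removed, the log2 fold change was 0.04 with shRNA1 (limma adjusted p = 0.456) and 0.07 with shRNA2 (limma adjusted p = 0.126). With quantile normalization it was 0.05 (limma adjusted p = 0.346) and 0.09 (limma adjusted p = 0.0772). With median-ratio size factors the shRNA1 value was 0.11 (limma adjusted p = 0.0629). The direction was the same in every setting tried. In bulk RNA, a change in the proportion of cells that express a keratin and a change in its RNA per cell cannot be told apart.

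*KRT8*, the type II keratin of the luminal pair, fell with shRNA2 alone. It was at 233.9, 223.7 and 233.3 FPKM in control cells, at 232.9, 230.7 and 237.7 FPKM with shRNA1, and at 202.5, 203.4 and 215.1 FPKM with shRNA2. All shRNA2 libraries were below all others, whereas shRNA1 and control libraries overlapped. The decrease with shRNA2 was 10.1% (log2 fold change −0.15 ± 0.03, limma adjusted p = 0.0145), and the change with shRNA1 was 0.02 (95% interval −0.06 to 0.10, limma adjusted p = 0.684). The difference between the shRNAs was itself past the threshold (log2 −0.18 ± 0.03, limma adjusted p = 0.0231). It was one of 2 members lower with shRNA2 than with shRNA1, and 0 were higher, against 4.79% and 1.92% of all genes. At an unadjusted limma p under 0.05 the counts were 4 and 0, a cut for which the shares of all genes are not given. Without scramble replicate 1 the decrease with shRNA2 had an adjusted p of 0.0515 by limma. The difference between the shRNAs had an adjusted p of 0.0668 by limma when only their 6 libraries were fitted, and it also lost its call without any one of the 3 shRNA1 libraries or without shRNA2 replicate 1 (limma adjusted p = 0.0701–0.0923).

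*KRT18*, the type I partner of *KRT8*, did not pass the threshold in any comparison. It was at 280.2, 268.3 and 268.6 FPKM in control cells, at 294.6, 293.6 and 296.5 FPKM with shRNA1, and at 260.3, 269.3 and 283.0 FPKM with shRNA2. The shRNA1 libraries lay above all others, but the log2 fold change of 0.11 ± 0.04 did not pass the threshold (limma adjusted p = 0.0615). With shRNA2 it was −0.01 (95% interval −0.09 to 0.07). Under 5 of 22 other settings, a minimum mean of 5 FPKM, a variance trend, only the libraries compared, or without shRNA2 replicate 1 or 3, the shRNA1 value was past the threshold, with a lowest limma adjusted p of 0.0248. With the length trend removed the shRNA1 value was 0.03 (limma adjusted p = 0.614), and with quantile normalization it was 0.05 (limma adjusted p = 0.334). All shRNA2 libraries were below all shRNA1 libraries, as for *KRT8*, with a log2 difference of −0.12 ± 0.04 (limma adjusted p = 0.0872). This difference was past the threshold with quantile normalization (−0.14, limma adjusted p = 0.033) and without shRNA2 replicate 3 (−0.15, limma adjusted p = 0.046). Whether the changes of *KRT8* and *KRT18* differed was not tested.

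The ratio of *KRT8* to *KRT18* was lower in every knockdown library than in every control library. It was 0.834, 0.834 and 0.869 in control cells, 0.791, 0.786 and 0.802 with shRNA1, and 0.778, 0.755 and 0.760 with shRNA2. The group means were 0.846 ± 0.0198, 0.793 ± 0.00818 and 0.764 ± 0.0118 (SD, n = 3), and the 3 groups did not overlap. This ratio is given as a description without a test. The ratio of summed type II to type I keratins was likewise 3.07 ± 0.0449, 2.96 ± 0.0110 and 2.86 ± 0.0670. As a share of summed keratin FPKM, *KRT8* was 12.9%, 12.4% and 11.8% in the 3 groups and *KRT19* was 8.58%, 8.90% and 9.74%.

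**Figure D2:**
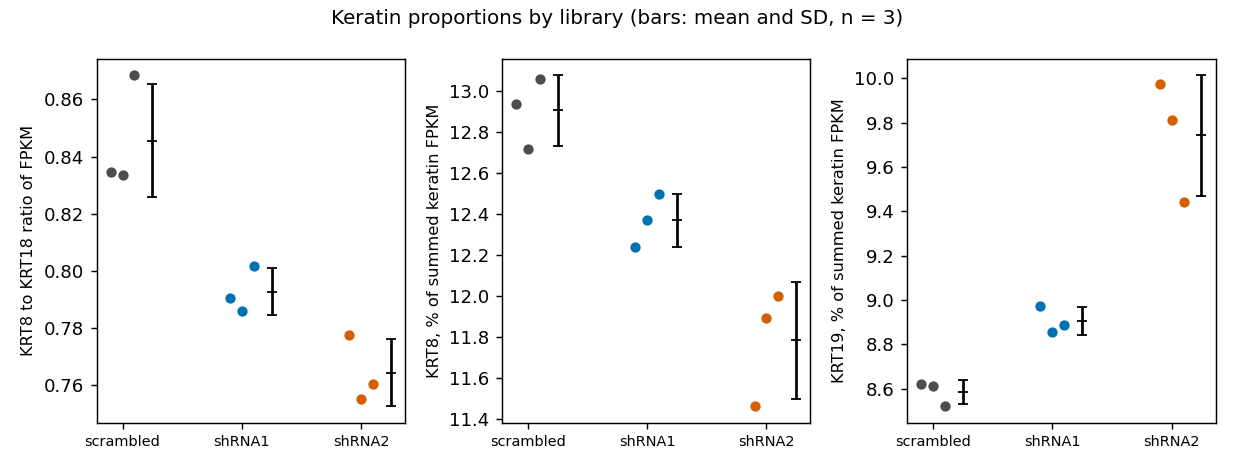
The ratio of *KRT8* to *KRT18* FPKM and the percent of summed keratin FPKM held by *KRT8* and *KRT19*, for each library by shRNA, with the mean and SD of 3 libraries beside the points. The vertical axes do not start at 0. The *KRT8* to *KRT18* ratio steps from a mean of 0.846 in control cells to 0.793 with shRNA1 and 0.764 with shRNA2.

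*KRT7*, the most abundant keratin, differed between the shRNAs. It was at 1029, 1012 and 1027 FPKM in control cells, at 1095, 1066 and 1082 FPKM with shRNA1, and at 1011, 959.6 and 1010.0 FPKM with shRNA2. The shRNA1 libraries lay above and the shRNA2 libraries below all control libraries. Neither shRNA passed the threshold against control (log2 0.08, limma adjusted p = 0.0889, and −0.04, limma adjusted p = 0.316). The difference of shRNA2 from shRNA1 did, at −0.12 ± 0.03 (limma adjusted p = 0.0463), and it lost its call in 12 of 22 other settings, among them leaving out any one control library, any one shRNA1 library, or shRNA2 replicate 1 or 3 (limma adjusted p = 0.0683–0.153). With quantile normalization or with the length trend removed, *KRT7* was lower with shRNA2 than in control cells (log2 −0.19 and −0.11, limma adjusted p = 0.0073 and 0.014). Quantile normalization also turned its shRNA1 value to −0.04.

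*KRT80* rose with shRNA2. It was at 83.9, 80.3 and 82.1 FPKM in control cells, at 85.0, 84.9 and 90.9 FPKM with shRNA1, and at 93.8, 88.7 and 91.5 FPKM with shRNA2. Every knockdown library was above every control library. The increase with shRNA2 was 11.2% (log2 fold change 0.15 ± 0.04, limma adjusted p = 0.0222). With shRNA1 the log2 fold change was 0.08 (95% interval −0.01 to 0.17, limma adjusted p = 0.169), and the difference between the shRNAs, 0.07 ± 0.04, was not past the threshold (limma adjusted p = 0.321). The shRNA2 call was lost with median-ratio size factors (limma adjusted p = 0.0542) and without scramble replicate 2 or 3 or shRNA2 replicate 1 or 3 (limma adjusted p = 0.0596–0.0768). *KRT19* and *KRT80* were the 2 of 6 tested members with all knockdown libraries above all control libraries, which held for 16.4% of tested genes. No tested member had all knockdown libraries below all control libraries, which held for 9.46%.

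*KRT81*, the hair keratin, was at 4.30, 3.56 and 3.90 FPKM in control cells, at 4.37, 3.88 and 4.47 FPKM with shRNA1, and at 3.54, 3.39 and 3.49 FPKM with shRNA2. The shRNA2 libraries were the 3 lowest. No comparison passed the threshold, and the largest difference was between the shRNAs (log2 −0.23 ± 0.06, limma adjusted p = 0.0752). The gene lies within the span of *KRT86*, its close copy, which did not pass the threshold with shRNA1 (log2 −0.00) or shRNA2 (−0.11, limma adjusted p = 0.106).

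**Figure D3:**
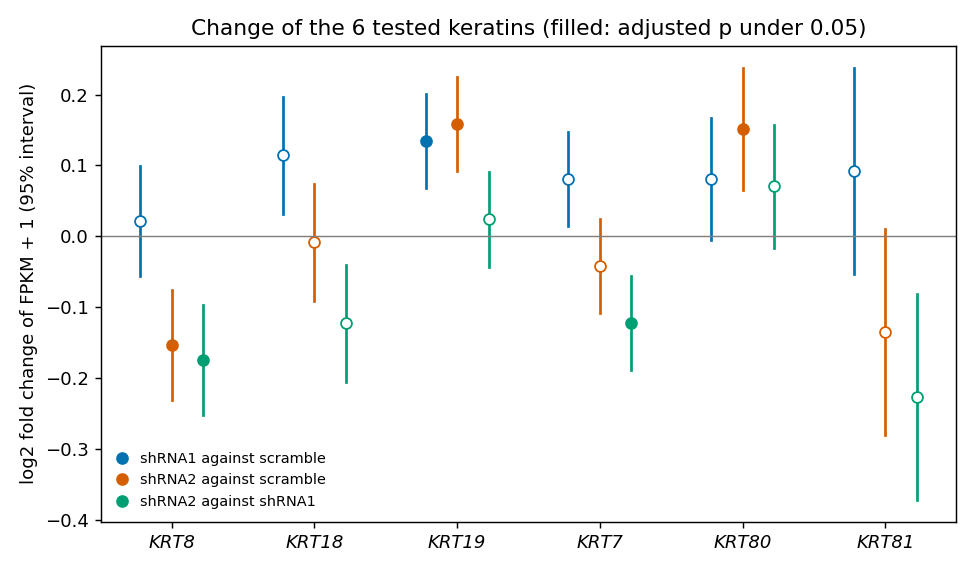
Log2 fold change of FPKM + 1 (vertical axis) for the 6 tested keratins in 3 comparisons, with 95% intervals from limma. Filled points have an adjusted p under 0.05: *KRT19* with both shRNAs, *KRT8* and *KRT80* with shRNA2, and *KRT8* and *KRT7* between the shRNAs.

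The basal keratins were at or near the limit of detection in every group. *KRT15* was at 0.2996, 0.2082 and 0.1992 FPKM in control cells, at 0.220, 0.234 and 0.241 FPKM with shRNA1, and at 0.238, 0.318 and 0.390 FPKM with shRNA2. The confidence bounds of these values correspond to 12.1–23.7 fragments per library, and the groups overlapped. *KRT6A* was at 0.0942–0.131 FPKM, or 5.63–10.97 fragments. Its shRNA1 libraries lay above its control libraries, with means of 0.117 ± 0.00391 and 0.101 ± 0.00635 FPKM (exact two-sided permutation test, n = 3 and 3, p = 0.1, the smallest this design can give). *KRT6B* and *KRT6C*, which differ from each other in few bases, had nearly equal values in every library, at means of 0.717 and 0.715 FPKM, and they cannot be told apart here. *KRT17* was at 0–0.0746 FPKM and at most 3.09 fragments, and it was listed at 0 in 1 library. *KRT5*, the defining type II keratin of basal cells, was at 0–0.0447 FPKM and at most 2.34 fragments, and it was listed at 0 in 2 libraries. At this depth no difference in *KRT5* or *KRT17* was detectable.

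The RefSeq entries of *KRT8* and *KRT80* were compared one by one, a comparison added after the gene-level values were seen. *KRT8* had 4 entries, of which NM_002273 (chr12:52897191-52905076) held 82.8–89.2% of the gene's FPKM. Its mean was 203.1 ± 8.53 FPKM in control cells, 203.1 ± 2.80 FPKM with shRNA1 and 173.0 ± 5.84 FPKM with shRNA2 (log2 −0.23 ± 0.05, limma adjusted p = 0.0525). NM_001256293, which starts within the span of *KRT18* (chr12:52897191-52949860), was at 17.9 ± 2.40, 20.3 ± 1.12 and 22.1 ± 2.35 FPKM (log2 0.29 ± 0.11 with shRNA2, limma adjusted p = 0.195). The share of NM_002273 was 88.2 ± 1.55%, 86.9 ± 1.02% and 83.6 ± 0.949% in the 3 groups. The library kit keeps strand, but whether strand was used in quantification is not given in the sources used here, so that reads of *KRT18* in the overlap may count in the longer *KRT8* entries.

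*KRT80* had 2 entries with the same outer ends (chr12:52168996-52192014). NM_001081492 was at 26.2, 30.6 and 28.6 FPKM in control cells, at 31.1, 27.3 and 36.4 FPKM with shRNA1, and at 40.5, 38.0 and 34.9 FPKM with shRNA2. The shRNA2 libraries were above all control libraries (log2 0.40 ± 0.11, limma adjusted p = 0.105). NM_182507 was at 53.7 ± 3.96, 55.3 ± 1.98 and 53.5 ± 2.95 FPKM (log2 −0.00 with shRNA2, limma adjusted p = 0.995). *KRT18* was carried by NM_000224, with 95.2–98.6% of its FPKM, and each of the other members but *KRT8* and *KRT80* had a single entry. None of the 11 member entries tested passed limma's adjusted threshold in any comparison. Of all 20600 entries tested, 104 were called with shRNA1, 706 with shRNA2, 105 between the shRNAs and 416 over all knockdown libraries. With so few calls, 0 of 11 says little about the gene-level calls. Per comparison, 1 to 4 member entries had an unadjusted limma p under 0.05, a cut for which the share of all entries is not given.

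**Figure D4:**
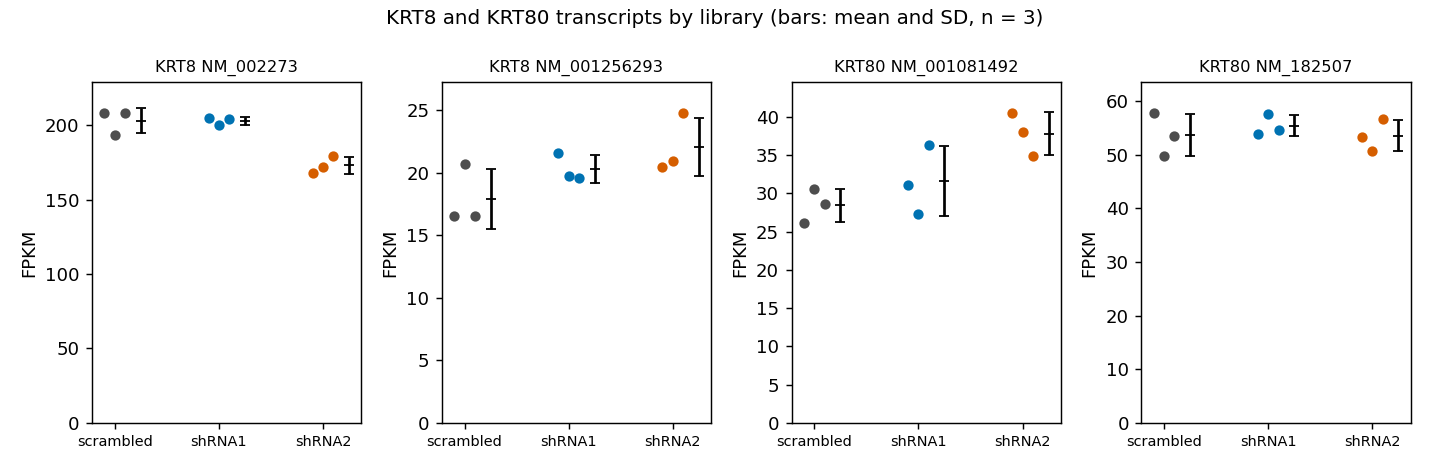
FPKM of 2 *KRT8* and 2 *KRT80* RefSeq entries in each library by shRNA, on axes that start at 0, with the mean and SD of 3 libraries beside the points. NM_002273 is lower with shRNA2 (mean 173.0 FPKM) than in control cells (203.1 FPKM), and NM_001081492 is higher (37.8 against 28.4 FPKM).

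Among the other expressed keratins, *KRT4* fell with shRNA2. It was at 3.14, 2.98 and 3.38 FPKM in control cells, at 2.28, 2.71 and 2.88 FPKM with shRNA1, and at 2.06, 1.79 and 2.02 FPKM with shRNA2. All knockdown libraries were below all control libraries. The log2 fold change was −0.50 ± 0.07 with shRNA2 (limma adjusted p = 0.00318) and −0.20 ± 0.07 with shRNA1 (limma adjusted p = 0.0825). *KRT10* did not pass the threshold with either shRNA (log2 0.08 with both, limma adjusted p = 0.303 and 0.275).

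Keratin filaments are anchored to desmosomes and hemidesmosomes by plakins and plaque proteins, and several of these genes fell. The lists of keratin linkers, other intermediate filament genes and epithelial transcription factors were chosen with earlier results of these data known. Their counts beside all genes are therefore a description. Of 15 genes for keratin linkers and partners, 11 were tested, and 6 fell with shRNA1 and 5 with shRNA2, whereas 0 and 1 rose. Over all tested genes, 7.19% and 11.4% fell and 11.7% and 15.3% rose. Their median log2 fold change was −0.16 with shRNA1 and −0.22 with shRNA2, beside 0.03 over all genes. Those that fell with both shRNAs were *DSP* (desmoplakin), *EVPL* (envoplakin), *PPL* (periplakin), *JUP* (plakoglobin) and *FAM83H*, which recruits casein kinase 1 to keratin filaments. *DSP* went from 8.65 ± 0.504 FPKM to 6.12 ± 0.152 FPKM with shRNA1 (log2 −0.44, limma adjusted p = 0.00545) and 6.51 ± 0.556 FPKM with shRNA2 (−0.36, limma adjusted p = 0.00521). *JUP*, the most abundant of these 5, went from 58.3 FPKM to 48.6 FPKM and 47.1 FPKM (log2 −0.26 and −0.30, limma adjusted p = 0.00928 and 0.00312). *SFN* (stratifin), a 14-3-3 protein that binds keratins, rose from 239.6 FPKM to 296.1 FPKM with shRNA2 (log2 0.30, limma adjusted p = 0.00687), and it was at 270.6 FPKM with shRNA1 (0.18, limma adjusted p = 0.0569). *CSNK1A1*, the casein kinase, was at a mean of 48.3 FPKM and did not pass the threshold with either shRNA. Of the listed linkers without a test, 3 had a mean below 1 FPKM. *PLEC* (plectin), at a mean of 46.15 FPKM, was left out because the status of an entry was not OK. Its means were 58.4 FPKM in control cells, 38.0 FPKM with shRNA1 and 42.1 FPKM with shRNA2.

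The linkers called with both shRNAs have long transcripts, from 3439 bases for *JUP* to 8741 bases for *DSP*, beside the decrease of log2 fold change with length given above. With the length trend removed, *DSP*, *EVPL*, *PPL* and *JUP* still passed the threshold with both shRNAs, with *DSP* at −0.31 and −0.25 (limma adjusted p = 0.0031 and 0.00187). *FAM83H* then passed with shRNA2 alone (limma adjusted p = 0.0286, and 0.163 with shRNA1). Its shRNA1 call was also lost without scramble replicate 1 or 2 or any one shRNA1 library (limma adjusted p up to 0.104).

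Of 15 other intermediate filament genes, 8 were tested, and 2 fell with shRNA1 and 3 with shRNA2, against 7.19% and 11.4% of all tested genes, while 0 rose with either, against 11.7% and 15.3%. *VIM* (vimentin, the filament of mesenchymal cells) was at a mean of 1078 FPKM, beside 1032 FPKM for *KRT7*, and did not pass the threshold with shRNA1 (log2 0.00) or shRNA2 (−0.04, limma adjusted p = 0.436). *LMNA*, which encodes nuclear lamins A and C, was at 317.3 FPKM and also did not pass with either shRNA. With quantile normalization both genes were called lower with both shRNAs, *VIM* at −0.13 and −0.18 (limma adjusted p = 0.0399 and 0.00913) and *LMNA* at −0.10 with each (limma adjusted p = 0.0489 and 0.0461). *SYNM* (synemin) fell from 7.52 FPKM to 5.58 FPKM and 5.97 FPKM (log2 −0.37 and −0.29, limma adjusted p = 0.00644 and 0.00727). *NES* (nestin), at a mean of 1.75 FPKM, also fell with both (log2 −0.31 and −0.20, limma adjusted p = 0.00804 and 0.0204). Its shRNA2 call was lost in 5 of 21 other settings, with only the libraries compared and without scramble replicate 1 or 2 or shRNA2 replicate 1 or 3 (limma adjusted p up to 0.0682). *LMNB2* (lamin B2) fell with shRNA2 (log2 −0.17, limma adjusted p = 0.00345), and its value with shRNA1 was −0.09 (limma adjusted p = 0.0501).

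Of 14 epithelial transcription factors, 7 were tested. With shRNA1, 3 fell and 1, *KLF4*, rose, and with shRNA2, 3 fell and 0 rose. The shares of all tested genes were 7.19% lower and 11.7% higher with shRNA1, and 11.4% and 15.3% with shRNA2. *ELF3*, an ETS factor of epithelial differentiation, fell from 20.6 FPKM to 18.1 FPKM and 16.3 FPKM (log2 −0.18 and −0.32, limma adjusted p = 0.0235 and 0.00212). *KLF5* fell from 12.6 FPKM to 11.6 FPKM and 11.4 FPKM (log2 −0.11 and −0.13, limma adjusted p = 0.0356 and 0.0145). *SP1*, a general activator of GC-rich promoters, fell with shRNA2 (log2 −0.35, limma adjusted p = 0.00334), and *TFAP2A* fell with shRNA1 (−0.27, limma adjusted p = 0.0232). The shRNA1 calls of 3 factors changed with single libraries. That of *KLF5* was lost in 7 of 22 other settings, with the length trend removed, with protein-coding accessions only, and without any one control library or shRNA1 replicate 2 or 3 (limma adjusted p up to 0.114). That of *ELF3* was lost without any one control library or shRNA1 replicate 1 or 2 (limma adjusted p up to 0.0755), and that of *TFAP2A* without any one control or shRNA1 library (limma adjusted p up to 0.0751). Of the epithelial markers, *EPCAM* rose with both shRNAs (log2 0.20 and 0.33, limma adjusted p = 0.0418 and 0.00552) and *CDH1* fell with both (−0.21 and −0.35, limma adjusted p = 0.0153 and 0.00175).

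Pairs of members varied together over the 9 libraries to different degrees. Pearson's r of log2(FPKM + 1) was 0.78 between *KRT7* and *KRT8*, 0.79 between *KRT7* and *KRT18*, and 0.66 between *KRT8* and *KRT18*. It was 0.87 between *KRT19* and *KRT80*, whereas *KRT19* and *KRT8* were at −0.46. These values describe 9 libraries in 3 groups and are not tests. The genes named next were picked for the highest r among all tested genes outside the family, so their high r follows from the choice. Outside the keratin family, the most similar genes were *EPHA2* (r = 0.99) for *KRT19*, *SLC33A2* (0.98) and *ERGIC1* (0.98) for *KRT8*, *MRPL49* (0.97) and *TGFBR3L* (0.97) for *KRT7*, *AVEN* (0.96) and *ZNF263* (0.95) for *KRT18*, *CDK9* (0.97) and *GBA2* (0.96) for *KRT80*, and *ZNF444* (0.93) and *AMOTL2* (0.93) for *KRT81*.

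**Figure D5:**
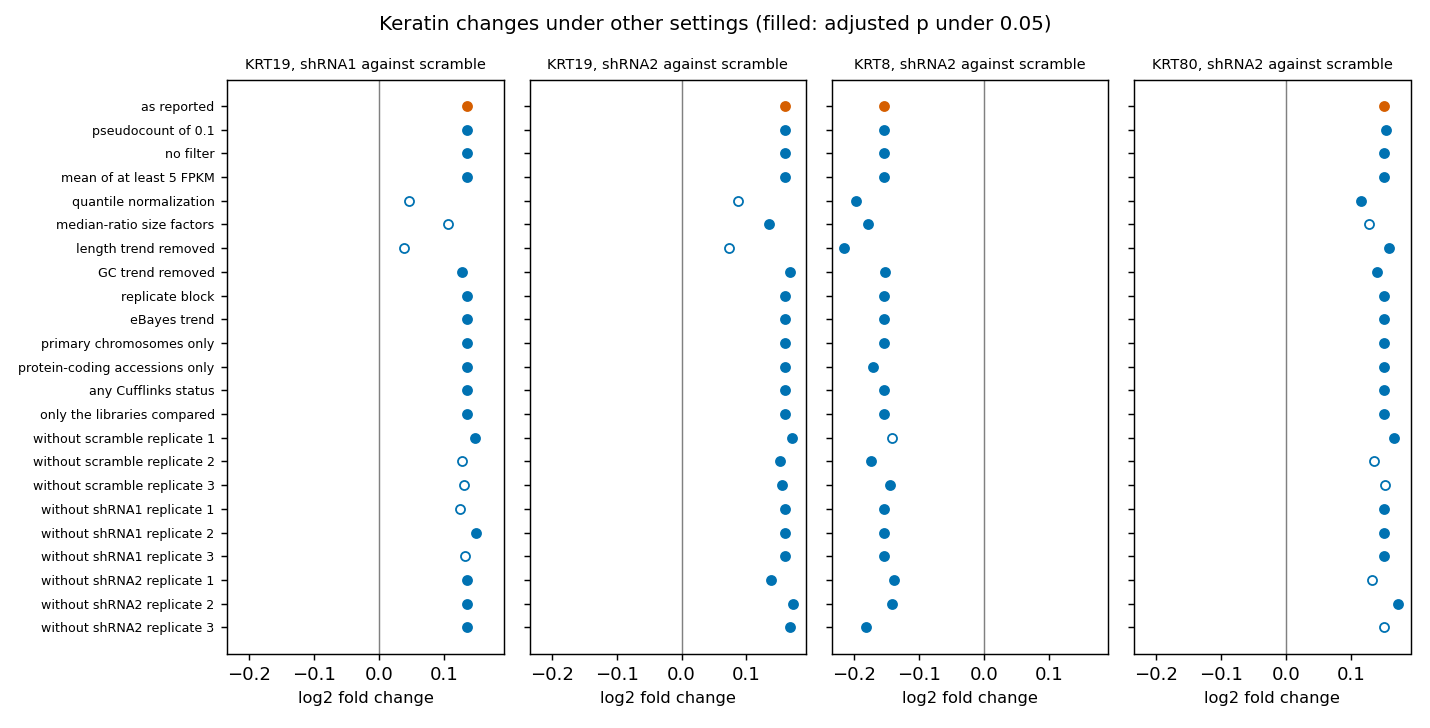
Log2 fold change (horizontal axis) of *KRT19*, *KRT8* and *KRT80* under the reported fit and 22 other settings, with filled points where the adjusted p was under 0.05. *KRT19* falls to 0.04 with shRNA1 and 0.07 with shRNA2 when the length trend is removed, while *KRT8* with shRNA2 lies between −0.22 and −0.14 throughout.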

How the data were processed

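RNA was measured in 9 libraries of DU145 cells, 3 per shRNA. Libraries were made with the TruSeq Stranded mRNA kit and sequenced on an Illumina HiSeq instrument. The authors mapped reads with STAR and computed FPKM with Cufflinks. The submitters' processing notes name hg38, and the loci in the deposited FPKM tables are on that build. Versions are not given in the sources used here. FPKM are already scaled for depth and transcript length, and counts were not used here.

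Tables were joined by accession and locus (83497 entries). Of 73240 accessions, 72645 matched a gene symbol, and FPKM were summed by symbol. Genes with an entry whose status was not OK (42 of 27902, none a member) were left out of tests. limma 3.58.1 in R 4.3.3 was fitted to log2(FPKM + 1) of genes whose mean reached 1 FPKM, in 3 groups for single shRNAs and in 2 groups for all knockdown libraries, adjusting p-values by Benjamini-Hochberg (threshold 0.05). Fold changes on this scale are understated for low genes. The fit was tested on simulated data, in which 200 changed genes were planted among 12509. Of planted changes of log2 0.263, 50% were recovered for shRNA1 and 55% for shRNA2 against control. The share was 44% between the shRNAs and 63% for all knockdown libraries. In the data more genes were called, 2357 with shRNA1 and 3335 with shRNA2, so the adjustment was less strict than in the simulation. These shares therefore do not measure recovery in the data. The changes of the tested keratins were smaller than the planted log2 0.263. A keratin that did not pass the threshold is not shown to be unchanged. Replicate numbers did not pair libraries. After the mean of each group was subtracted gene by gene, same-numbered libraries of different groups correlated at −0.071 to 0.111. Differently numbered libraries of different groups correlated at −0.123 to 0.184.

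The members and lists were chosen with earlier results of these data known. All 10 members are named. Other keratins are named at a mean of at least 1 FPKM. From the other lists the 3 genes with the highest means, and those called with both shRNAs, are named. *KLF4*, *CD14* and *PLEC* were named after their values were seen. Alternatives changed the pseudocount, filter, scaling, length or GC trend (lowess, span 0.3), entries, variance model, block, criteria or libraries. Python 3.11.15, pandas 2.3.3, scipy 1.17.1 and Biopython 1.88 were used. Some genes and sequences that the naming rule would include are not reported here.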

Additional observations from a re-analysis of the deposited data

Results flagged for a closer look

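A pair of keratins differed between the 2 *FZD6* shRNAs by a direct test of shRNA2 against shRNA1. *KRT8* differed by −0.18 on the log2 scale (207.0 FPKM with shRNA2 against 233.8 FPKM with shRNA1, limma adjusted p = 0.0231), and all 3 shRNA2 libraries were below all 3 shRNA1 libraries. *KRT7* differed by −0.12 (993.5 against 1081 FPKM, limma adjusted p = 0.0463), also without overlap. *FZD6* itself was lower with shRNA2 (8.11 FPKM) than with shRNA1 (9.83 FPKM, limma adjusted p = 0.0273), and the part of this gap in the keratin differences was not tested.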

How the results depend on the processing

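With shRNA1, 1 keratin was called as reported and 0 with quantile normalization, median-ratio size factors or the length trend removed. There were 2 with a minimum mean of 5 FPKM, the GC trend removed or a variance trend. With only the libraries compared there were 3, and with one library left out 0 to 2. Over all genes, 2357 were called as reported, 1881 with quantile normalization, 2046 with median-ratio size factors and 1495 with the length trend removed. The number was 2364 of 8608 tested with a minimum mean of 5 FPKM. It was 3125 with the GC trend removed and 2505 with a variance trend. It was 3409 with only the libraries compared and ranged from 883 to 3525 across all settings. Without scramble replicate 2 or 3, or shRNA1 replicate 1 or 3, *KRT19* lost its shRNA1 call (limma adjusted p = 0.0587–0.0721). Between the shRNAs, 2 were called as reported, 1 with a pseudocount of 0.1, median-ratio size factors or protein-coding accessions only, 0 with only the libraries compared, 3 with quantile normalization (with *KRT18*) or the GC trend removed (with *KRT81*), and 0 to 2 with one library left out. In the knockdown comparison, 1 was called as reported, 2 with a minimum mean of 5 FPKM, 0 with quantile normalization or the length trend removed, and 0 by the study's criteria, whose 1.2-fold minimum none of the 6 tested members reached. Transcripts tested one by one, an alternative chosen after seeing the data, gave 0 in all 4 comparisons. The cause of these changes was not tested.

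The log2 fold change of *FZD6* was −1.15 to −1.08 with one library left out, and without a control library its exact permutation p was 0.0714, the smallest that 6 against 2 libraries can give. The *KRT8* to *KRT18* ratio with protein-coding accessions only was 0.820, 0.768 and 0.732 in the 3 groups.

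Signs turned only for changes that were not called as reported. With quantile normalization, *KRT7* was at −0.0394 with shRNA1 and −0.114 over all knockdown libraries, *KRT8* at −0.0419 with shRNA1, *KRT18* at −0.0253 over all knockdown libraries, *VIM* at −0.130 (then called) and *KRT86* at 0.0083 with shRNA1. With median-ratio size factors, *KRT7* was at −0.0077 over all knockdown libraries, *KRT8* at −0.0075 and *VIM* at −0.0259 with shRNA1. With the length trend removed, *KRT7* was at −0.0531 and *KRT18* at −0.0297 over all knockdown libraries, and *KRT8* at −0.050 and *VIM* at −0.0559 with shRNA1. *VIM* was at −0.0228 with the GC trend removed. With one library left out, *KRT18* with shRNA2 ranged from −0.0404 to 0.0195 (0.012 without scramble replicate 1), *KRT81* over all knockdown libraries from −0.0748 to 0.0334 (0.0064 without shRNA2 replicate 2), *KRT86* with shRNA1 from −0.0431 to 0.0338, and *VIM* with shRNA1 from −0.0067 to 0.0191.

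The higher and lower calls over all genes moved with the scaling. They were 1458 and 899 with shRNA1 as reported, 827 and 1054 with quantile normalization, 897 and 1149 with median-ratio size factors, 748 and 747 with the length trend removed, and 1455 and 1670 with the GC trend removed. With shRNA2 they were 1913 and 1422 as reported and 1391 and 1702 with median-ratio size factors. For all knockdown libraries they were 1690 and 888 as reported, 1047 and 1058 with quantile normalization, 1076 and 1155 with median-ratio size factors, 808 and 693 with the length trend removed, 1511 and 1490 with the GC trend removed, and 138 and 223 by the study's criteria. The last pair applies the study's cutoffs to log2(FPKM + 1) of the genes tested here. It is not the paper's own count, which was larger in each direction. The replicate number as a block gave keratin counts of 1, 3, 3 and 1 in the 4 comparisons. With it, *KRT81* was also called between the shRNAs (log2 −0.23, limma adjusted p = 0.0404). *KRT4* lost its call over all knockdown libraries (limma adjusted p = 0.0718). Over all genes, the block gave 2525 calls with shRNA1 and 3558 with shRNA2. Levels below about 1 FPKM rest on few fragments, which limits the basal keratins.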
